A study of Mus musculus with 7 samples.

Results

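Interferon response genes were followed in CD4+ T cells of scurfy mice that have or lack Il2, which encodes interleukin-2, a growth factor of T cells. The members are 41 named genes that interferons induce in many cell types. Each was read from the probe set that names that gene alone and has the highest mean over the arrays. By this rule 37 of the 41 were measured, among 18193 genes named on the array, and all 37 passed the filter on dim genes that left 11460 genes to test. Isg15 and Tgtp1 stand here on probe sets that also name a second gene, and Ifi44 and Ly6a were not analysed here. The names were chosen by function, with earlier results of these data known.

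The study holds 7 Affymetrix mouse arrays in 3 groups, of RNA from CD4+ T cells of male mice aged 3 weeks. The B6 group, C57BL/6 wild type, is 1 array of RNA from 2 pooled mice. Sf mice (scurfy, B6.Cg-Foxp3sf/J) have in every cell a mutated Foxp3, which encodes the transcription factor of regulatory T cells, and gave 3 arrays. Sf.Il2-/- mice add to the scurfy mutation a null Il2 (B6.129P2-Il2tm1Hor/J), again in every cell, and gave 3 arrays. The cells came from the facial, cervical, axillary, brachial and inguinal lymph nodes, and the labels call the arrays of a group biological replicates. Before sorting for CD3 and CD4, cells with NK1.1, CD11c, CD11b, CD8 or B220 were removed. Arrays are named here by group and by the replicate number of their titles. No group has Il2 disrupted with Foxp3 intact, so a difference of Sf.Il2-/- from Sf is a difference within scurfy mice.

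Type I interferons signal through the receptor made of IFNAR1 and IFNAR2 and the kinases JAK1 and TYK2 to a complex that holds STAT2 and IRF9. This complex binds the interferon-stimulated response element (ISRE) and induces antiviral effectors such as the Ifit, Oas and Mx families. Interferon gamma, which activated T cells themselves secrete, signals through IFNGR1 and IFNGR2 and the kinases JAK1 and JAK2, and its target genes carry the gamma-activated site (GAS). It induces Irf1 and 2 families of GTPases, the guanylate-binding proteins (Gbp) and the immunity-related GTPases (Irg). Many genes of either kind answer to both interferons, so the names type I and gamma-type are a division by family and no measure of which interferon acted.

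The promoters of 8 measured members, each of which holds a match, are printed to show the letters of these elements. They are the 160 bases before the start site, from RefSeq on GRCm38.p6, and capitals mark each match to an ISRE (GAAANNGAAA, or TTTCNNTTTC on the other strand) or a GAS (TTCNNNGAA). They stand for type I targets (Ifit1 at chr19:34640729-34640888, plus strand; Rsad2 at chr12:26456453-26456612, minus strand; Trim30a at chr7:104465194-104465353, minus strand), for gamma-type GTPases (Gbp2 at chr3:142620503-142620662, Gbp7 at chr3:142530176-142530335 and Igtp at chr11:58199396-58199555, plus strand; Irgm1 at chr11:48871421-48871580, minus strand) and for a factor (Irf1 at chr11:53769854-53770013, plus strand).
Ifit1: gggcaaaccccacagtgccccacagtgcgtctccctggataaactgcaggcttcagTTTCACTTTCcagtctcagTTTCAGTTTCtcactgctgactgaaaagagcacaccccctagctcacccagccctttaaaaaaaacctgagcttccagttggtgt
Rsad2: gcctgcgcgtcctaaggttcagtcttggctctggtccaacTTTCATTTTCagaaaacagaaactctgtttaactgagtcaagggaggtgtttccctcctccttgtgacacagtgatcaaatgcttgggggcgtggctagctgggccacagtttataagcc
Trim30a: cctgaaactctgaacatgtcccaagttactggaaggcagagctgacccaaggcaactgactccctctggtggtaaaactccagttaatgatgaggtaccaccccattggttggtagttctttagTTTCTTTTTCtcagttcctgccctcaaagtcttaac
Gbp2: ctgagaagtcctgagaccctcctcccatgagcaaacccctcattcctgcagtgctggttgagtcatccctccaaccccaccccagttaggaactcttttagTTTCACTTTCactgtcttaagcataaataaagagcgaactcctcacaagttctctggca
Gbp7: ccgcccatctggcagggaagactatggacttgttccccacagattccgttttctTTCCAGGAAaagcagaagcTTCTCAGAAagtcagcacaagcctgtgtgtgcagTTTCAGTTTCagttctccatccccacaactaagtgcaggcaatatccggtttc
Igtp: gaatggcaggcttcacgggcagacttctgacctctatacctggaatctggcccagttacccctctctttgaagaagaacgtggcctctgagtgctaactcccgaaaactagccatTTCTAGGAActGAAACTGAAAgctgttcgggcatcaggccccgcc
Irgm1: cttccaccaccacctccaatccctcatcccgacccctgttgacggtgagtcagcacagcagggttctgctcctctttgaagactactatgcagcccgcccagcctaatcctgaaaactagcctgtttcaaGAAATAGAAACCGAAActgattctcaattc
Irf1: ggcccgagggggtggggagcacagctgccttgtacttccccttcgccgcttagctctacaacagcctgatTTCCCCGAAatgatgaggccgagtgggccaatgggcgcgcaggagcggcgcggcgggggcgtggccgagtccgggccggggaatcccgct

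The ISRE letters start at -104 and -85 of Ifit1, at -120 of Rsad2, at -36 of Trim30a, at -59 of Gbp2 and at -53 of Gbp7. Igtp has them at -34 and Irgm1 at -30 and -24, where both matches overlap. GAS letters start at -106 and -87 of Gbp7, at -45 of Igtp and at -90 of Irf1. A promoter was given for 29 of the 41 members, and 15 of these (51.7%) held ISRE letters and 9 (31.0%) GAS letters in the 250 bases before a start. Over all 27025 genes with a promoter the shares were 3.46% and 8.13%. ISRE letters stood in 4 of 7 type I promoters and in 6 of 6 gamma-type promoters, so these letters do not divide the families. In Bst2 a GAS match overlaps an ISRE match.

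Sample identity was checked first on genes that are no members. Foxp3 read 7.25 in B6, 5.87 to 6.32 in Sf and 4.20 to 4.41 in Sf.Il2-/-, on a log2(intensity + 1) scale that is used for all values here. Il2 read 5.22 in B6, 5.09 to 7.35 in Sf and 7.17 to 8.20 in the arrays labelled Sf.Il2-/-. This does not test the genotype, since the place of its probes relative to the disruption is not known here. The 8 measured CD4 T cell markers of 9 were bright in every array (9.44 to 11.85), and their summed intensity was 21800 in B6, 11400 to 15900 in Sf and 17900 to 19900 in Sf.Il2-/-. The 6 markers of plasmacytoid dendritic cells, a main source of type I interferon, summed to 397 in B6, 248 to 309 in Sf and 243 to 349 in Sf.Il2-/-, with the defining gene Siglech at 3.77 in B6 and 4.02 to 4.68 in the mutants and none at 0. Ccr9, which T cells also express, carried the excess of B6 (7.98 against 6.64 to 7.80), and without it the other 5 summed to 146 in B6, 133 to 150 in Sf and 128 to 144 in Sf.Il2-/-. The sums of the CD4 T cell markers, of 2 CD8 T cell markers (312 against 146 to 201), of 4 plasma cell markers (3820 against 1950 to 3180) and of 2 erythroid markers (56.8 against 7.28 to 20.5) were highest in B6, and that of 3 NK cell markers lowest (136 against 178 to 970). Ighm carried the plasma cell excess of B6 (11.53 against 9.69 to 11.00), while Jchain, Sdc1 and Xbp1 were not highest there. Alas2 carried the erythroid excess (5.81 against 2.85 to 4.25). Eomes carried the NK cell sum (6.94 against 7.29 to 9.90), while Ncr1 and Klra8 stayed at 3.95 or lower in every array. The part of these markers in the results was not tested. The neutrophil gene S100a8 stood out in Sf 1 (6.37) and Sf.Il2-/- 2 (7.63) against 2.53 to 4.10 elsewhere. S100a9 (5.72 and 7.09 against 1.34 to 3.23) and Camp (5.13 and 5.46 against 4.23 to 4.90) were also highest in these arrays. The other measured neutrophil markers, Mpo, Elane and Ngp, did not set both arrays apart. The upper quartile of intensity was 110 to 116 in Sf 1, Sf 2, Sf.Il2-/- 1 and Sf.Il2-/- 2, called array set 1 below, and 130 to 145 in B6, Sf 3 and Sf.Il2-/- 3, called set 2. The sets come from an earlier reading of these values, not from the labels.

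Most members had a lower mean in Sf CD4 T cells than in the B6 array. The share of members below B6 exceeded that of all genes in Sf 1 and Sf 2, but was near it in Sf 3. By mean, the members in Sf.Il2-/- stood near all genes. In Sf 34 of 37 members had a lower mean than B6, against 65.3% of all genes tested, and 23 had all 3 Sf arrays below B6, against 46.9% of all genes. In 2 members, Gbp3 and Iigp1, all 3 Sf arrays lay above B6, against 19.6%. The median difference of the members was -0.82 and that of all genes -0.25. With the array set as a block these medians were -0.53 and -0.13. Sf 1 and Sf 2 each had 35 of 37 members below B6, against 66.3% and 67.9% of all genes. Sf 3, the 1 Sf array in the set of B6, had 23 (62.2%), against 59.2%. For all genes the median distance from B6 was -0.29 in Sf 1, -0.41 in Sf 2 and -0.1 in Sf 3. By array, the members' median distance from B6 was -0.86, -1.11 and -0.26 in the Sf arrays and -0.04, -0.45 and -0.16 in the Sf.Il2-/- arrays, so Sf.Il2-/- 2 lay below Sf 3. Past the threshold (limma, Benjamini-Hochberg adjusted p under 0.05 over all genes tested) 3 members fell in Sf, namely Oas2, Ifit2 and Usp18, against 1.16% of all genes, and 0 rose, against 1.31%. At an unadjusted p under 0.05, 15 members were lower, against 16.8% of all genes, and 1 was higher, against 5.79%. In Sf.Il2-/- 25 of 37 members had a lower mean than B6, against 60.3% of all genes, and the median was -0.21 beside -0.14. All 3 Sf.Il2-/- arrays lay below B6 in 17 members, against 44.5% of all genes, and above in 5, against 24.7%. Past the threshold Oas2 and Ifit2 fell, against 1.2% of all genes, and 0 members rose, against 1.49%. At an unadjusted p under 0.05, 5 members were lower, against 12.5% of all genes, and 2 were higher, against 6.09%. Both comparisons use the same B6 array, so they share its error. In bulk RNA, fewer cells of a type and less RNA per cell cannot be told apart.

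**Figure D1:**
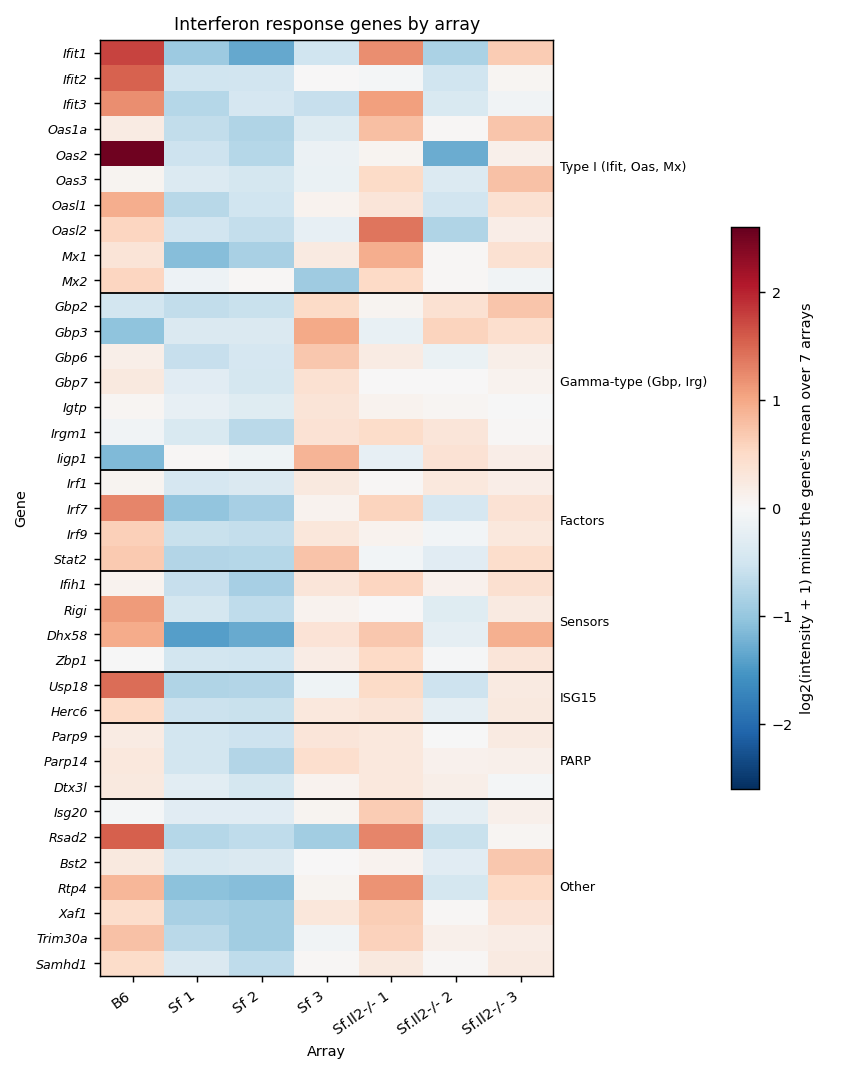
Each of the 37 measured members in each of the 7 arrays, as its log2(intensity + 1) minus its mean over the 7 arrays; red is above and blue below that mean, and black lines divide the roles. The B6 column is reddest in the type I rows, where Oas2 and Ifit2 stand out, and Sf 1 and Sf 2 are blue in most rows.

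The arrays of a group did not read alike. Among the Sf arrays, Sf 3 was the highest in 34 of 37 members, against 68.0% of all genes, and Sf 1 in 0. By the median over the members Sf 3 lay nearer to B6 (-0.26) than Sf 1 (-0.86) and Sf 2 (-1.11). In Gbp2, Gbp3, Iigp1, Mx2 and Rsad2 it was instead the Sf array farthest from B6. Among the Sf.Il2-/- arrays, Sf.Il2-/- 1 was the highest in 23 of 37 members, against 25.6% of all genes, and Sf.Il2-/- 2 the lowest in 28, against 36.4%. The median SD of the type I members was 0.30 over the Sf arrays and 0.54 over the Sf.Il2-/- arrays, while that of the gamma-type members was 0.56 and 0.22, and that of all genes 0.31 and 0.22. The type I members thus varied more over the Sf.Il2-/- arrays, with Oasl2 at the highest SD (1.09), and the gamma-type members more over the Sf arrays, with Gbp3 at 0.79.

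The 10 type I effectors (Ifit, Oas and Mx) had lower means in Sf than in B6 without exception, and in each of the 10 all 3 Sf arrays lay below the B6 array, beside 65.3% and 46.9% of all genes. Their differences ran from -3.02 to -0.40 with a median of -1.17. In Sf.Il2-/- 7 of 10 were lower, beside 60.3% of all genes, 6 of them with all 3 arrays below B6, beside 44.5%. The median there was -0.64, and -0.39 with the replicate block. By array, the median distance from B6 was -1.56, -1.33 and -1.17 in the Sf arrays and -0.10, -1.39 and -0.60 in the Sf.Il2-/- arrays. Sf.Il2-/- 2 lay as low as the Sf arrays and Sf.Il2-/- 1 near B6. All 3 Sf.Il2-/- arrays lay above all 3 Sf arrays in 2 of the 10 members, beside 8.39% of all genes.

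Oas2 encodes an oligoadenylate synthetase, which on binding double-stranded RNA makes the messenger that activates RNase L. It read 7.96 in B6, 4.89, 4.68 and 5.27 in the Sf arrays, and 5.49, 4.14 and 5.55 in the Sf.Il2-/- arrays. The B6 array lay far above all 6 mutant arrays, and the mutant groups overlapped. Oas2 fell by 3.02 ± 0.54 in Sf (log2, SE, n = 3 and 1), an 8.09-fold difference (limma adjusted p = 0.024), and by 2.90 ± 0.54 in Sf.Il2-/-, 7.47-fold (adjusted p = 0.0274). Sf.Il2-/- differed from Sf by 0.12, with a 95% interval of -0.74 to 0.97. In Sf.Il2-/- the call was lost when dim genes were kept in the fit (adjusted p = 0.058).

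Ifit2 encodes an RNA-binding protein that restrains translation of viral messages. Its values were 9.64 in B6, 7.59, 7.60 and 8.11 in the Sf arrays, and 8.06, 7.58 and 8.16 in the Sf.Il2-/- arrays. Again B6 was alone at the top and both mutant groups covered the same range. Ifit2 fell by 1.87 ± 0.34 in Sf, 3.66-fold (limma adjusted p = 0.025), and by 1.71 ± 0.34 in Sf.Il2-/-, 3.26-fold (adjusted p = 0.0352). The difference of Sf.Il2-/- from Sf was 0.16, with a 95% interval of -0.38 to 0.71. The call in Sf was lost without Sf 1 (adjusted p = 0.077). The call in Sf.Il2-/- was lost without Sf 1 (0.0619), Sf.Il2-/- 1 (0.0853), Sf.Il2-/- 2 (0.089) or Sf.Il2-/- 3 (0.0524) as adjusted p, at 0.122 without Sf 1 and Sf.Il2-/- 2 together, and at 0.0621 with dim genes kept.

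The sister genes Ifit1 and Ifit3, which lie beside Ifit2 on chromosome 19, read otherwise in Sf.Il2-/-. Ifit1, which binds viral RNA that lacks a methylated cap, read 8.82 in B6, 6.13, 5.74 and 6.54 in the Sf arrays, and 8.27, 6.24 and 7.72 in the Sf.Il2-/- arrays. It differed from B6 by -2.69 ± 0.64 in Sf (limma adjusted p = 0.0612, and 0.0202 with a replicate block) and by -1.41 ± 0.64 in Sf.Il2-/- (adjusted p = 0.277). Sf.Il2-/- exceeded Sf by 1.28 ± 0.45 (adjusted p = 0.488), with 1 of its 3 arrays inside the Sf range. Ifit3 read 8.60 in B6, 6.64, 6.95 and 6.80 in the Sf arrays, and 8.45, 6.99 and 7.30 in the Sf.Il2-/- arrays, so all Sf.Il2-/- arrays lay above all Sf arrays, 1 of them by little.

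Oas1a, another oligoadenylate synthetase gene of the cluster on chromosome 5, did not follow Oas2 in Sf.Il2-/-. It read 6.70 in B6, 5.85, 5.70 and 6.14 in the Sf arrays, and 7.26, 6.51 and 7.20 in the Sf.Il2-/- arrays. All Sf arrays were below B6 and below all Sf.Il2-/- arrays, and 2 of the 3 Sf.Il2-/- arrays were above B6. Sf.Il2-/- exceeded Sf by 1.10 ± 0.25 (log2, SE, n = 3 and 3), which did not pass (limma adjusted p = 0.197), and passed with the replicate number as a block (adjusted p = 0.044). Oas3, Oasl1 and Oasl2, the other genes of the family, differed between Sf and B6 by -0.40, -1.33 and -1.01 and between Sf.Il2-/- and B6 by 0.24, -0.88 and -0.30. Oasl2 ranged widest, with 6.65 to 7.06 in Sf and 8.67, 6.50 and 7.45 in Sf.Il2-/-.

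Mx1 and Mx2 are genes of the Mx family of dynamin-like GTPases. Mx1 read 6.85 in B6, 5.40, 5.67 and 6.73 in the Sf arrays, and 7.45, 6.54 and 6.90 in the Sf.Il2-/- arrays. Sf 3 lay inside the range of Sf.Il2-/- and just under B6, and the other Sf arrays lay below. Mx2 was near the filter, at 5.66 in B6, 4.17 to 5.12 in Sf and no more than 5.62 in Sf.Il2-/-. Neither passed the threshold in any comparison with the 7 arrays.

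**Figure D2:**
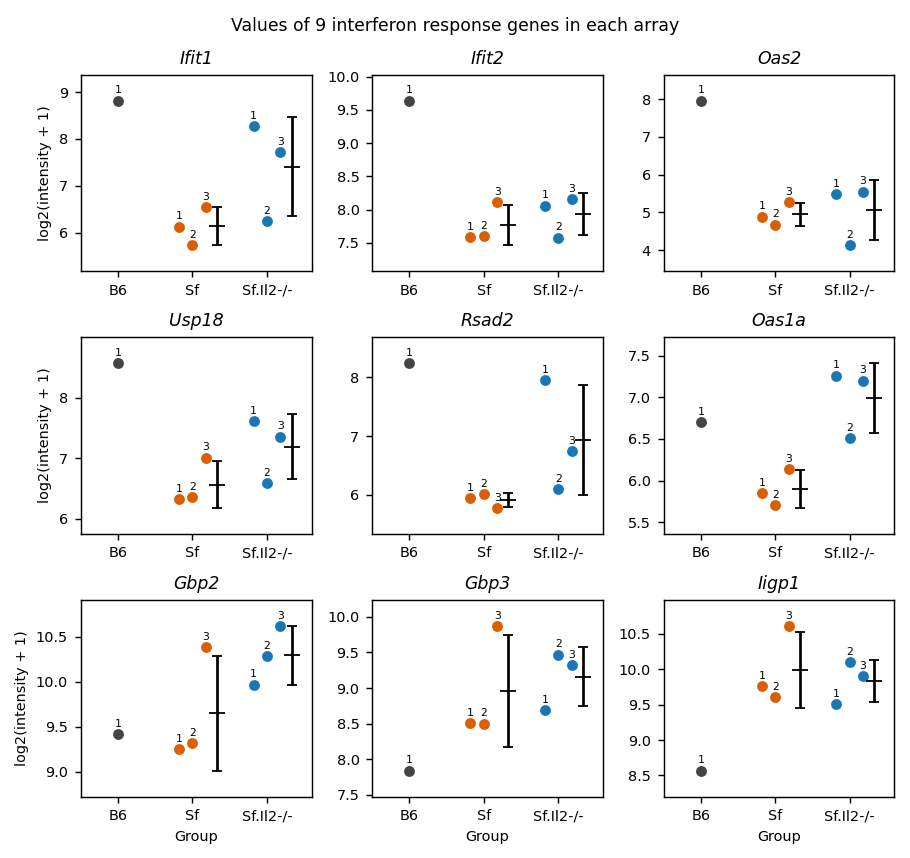
log2(intensity + 1) of 9 members in each array, by group; points carry the replicate number, and the bar beside a mutant group is its mean and SD (n = 3). Ifit1, Ifit2, Oas2, Usp18 and Rsad2 have B6 on top, Oas1a has Sf lowest, and in Gbp3 and Iigp1 B6 is lowest; the vertical axes differ and do not start at 0.

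With all 7 arrays in the fit, the 7 measured gamma-type GTPases did not fall as a group with the type I effectors. In Sf 3 had a higher and 4 a lower mean than B6, with a median of -0.11, and in Sf.Il2-/- 5 were higher and 2 lower, with a median of 0.37. None passed the threshold in either comparison with all 7 arrays (limma). At an unadjusted p under 0.05, 1 was higher in Sf, against 5.79% of all genes, and 2 in Sf.Il2-/-, against 6.09%. At that level 0 were lower, against 16.8% of all genes in Sf and 12.5% in Sf.Il2-/-. The median in Sf lay 0.13 above that of all genes, while the type I median lay 0.92 below it. After quantile normalization, which moved the median of all genes from -0.25 to 0.03, the gamma-type median was 0.55, 0.52 above all genes, and the type I median -1.07, 1.10 below all genes. The sign of the gamma-type median in Sf therefore turned with the scaling, as it did without Sf 2 (0.08) and with the array set as a block (0.19), and that of the type I members did not. Without Sf 3 the gamma-type median in Sf was -0.31, 0.04 above all genes. In that fit Gbp6 (-0.67) and Gbp7 (-0.63) passed as lower, against 24.7% of all genes, and Iigp1 as higher, against 5.92%. In Sf 3, the 1 Sf array in the set of B6, all 7 gamma-type members were above B6 and all 10 type I members below. In that array 59.2% of all genes were below B6. The other Sf arrays differed: 5 of 7 gamma-type members lay below B6 in Sf 1 and in Sf 2, against 66.3% and 67.9% of all genes. The gamma-type medians there were -0.26 and -0.37, beside -0.29 and -0.41 for all genes and -1.56 and -1.33 for the type I members.

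Iigp1, an immunity-related GTPase gene on chromosome 18 whose product attacks vacuoles that hold parasites, had the lowest unadjusted p of the family against B6. Its values were 8.57 in B6, 9.76, 9.61 and 10.61 in the Sf arrays, and 9.51, 10.10 and 9.90 in the Sf.Il2-/- arrays. All 6 mutant arrays lay above B6 and the mutants overlapped. It was higher by 1.42 ± 0.40 in Sf (limma adjusted p = 0.094) and by 1.26 ± 0.40 in Sf.Il2-/- (adjusted p = 0.148), neither past the threshold. Without Sf 3 both passed (adjusted p = 0.0153 and 0.0131), as did both with the array set as a block.

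Gbp2, a guanylate-binding protein gene, read 9.42 in B6, 9.25, 9.32 and 10.39 in the Sf arrays, and 9.97, 10.29 and 10.62 in the Sf.Il2-/- arrays. All Sf.Il2-/- arrays were above B6, and Sf 3 alone of the Sf arrays was among them. Sf.Il2-/- exceeded Sf by 0.64 ± 0.31 (limma adjusted p = 0.675, and 0.0268 without Sf 3). Gbp3 read 7.84 in B6 and higher in all mutant arrays, with Sf at 8.51, 8.50 and 9.87 and Sf.Il2-/- at 8.69, 9.47 and 9.32. The other members, Gbp6, Gbp7, Igtp and Irgm1, differed from B6 by -0.37 to -0.11 in Sf and by -0.21 to 0.37 in Sf.Il2-/-. Gbp2, Gbp3 and Gbp7 lie side by side on chromosome 3, and related Gbp transcripts may share probes, which was not tested.

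**Figure D3:**
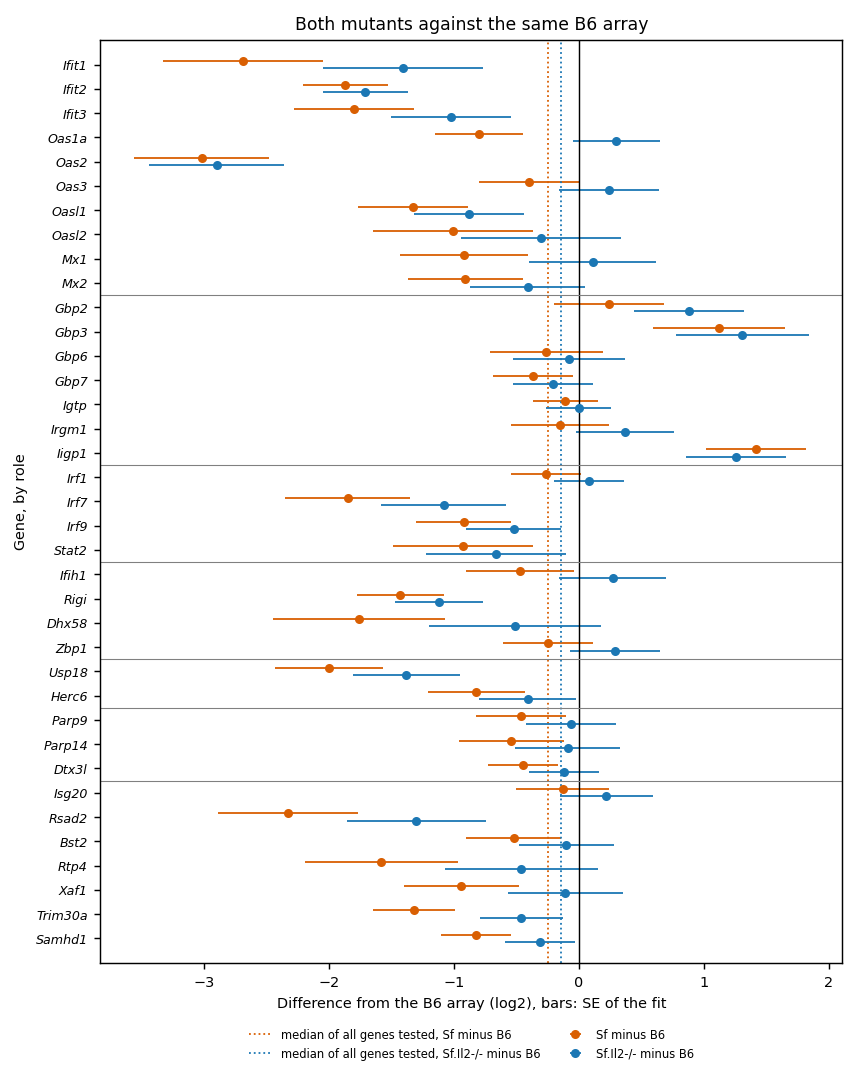
Difference of each member from the B6 array (log2) in Sf (orange) and Sf.Il2-/- (blue), with bars of 1 SE from the fit; dotted lines are the medians of all genes tested (-0.25 and -0.14). Orange points lie left of blue ones in all members but Iigp1, and in the type I rows they lie from -3.02 to -0.40, against -0.37 to 1.42 in the gamma-type rows.

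The 4 transcription factors had lower means in Sf than in B6, with a median of -0.93, and 3 of them in Sf.Il2-/-, with a median of -0.59. None passed the threshold (limma). At an unadjusted p under 0.05, 2 were lower in Sf, against 16.8% of all genes, and 0 in Sf.Il2-/-, against 12.5%. Irf7, the factor that amplifies type I interferon production, read 9.75 in B6, 7.47, 7.63 and 8.59 in the Sf arrays, and 9.07, 8.06 and 8.86 in the Sf.Il2-/- arrays. B6 lay above all mutant arrays, and the mutants overlapped through Sf 3 and Sf.Il2-/- 2. The differences from B6 were -1.85 ± 0.50 in Sf (limma adjusted p = 0.0831, and 0.0276 with the replicate block) and -1.08 ± 0.50 in Sf.Il2-/- (adjusted p = 0.281). Irf9, the DNA-binding subunit of the complex that type I interferon activates, differed by -0.92 and -0.52, and Stat2, its partner, by -0.93 and -0.66. Irf1, which interferon gamma induces through the GAS printed above, read 11.05 in B6, 10.54, 10.61 and 11.23 in the Sf arrays, and 11.00, 11.26 and 11.14 in the Sf.Il2-/- arrays. Its differences from B6, -0.26 and 0.08, lay within the range of the gamma-type members. The medians of all genes were -0.25 and -0.14. The difference in Sf.Il2-/- also lay within the type I range there (-2.90 to 0.30).

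Of the sensors of nucleic acid, Rigi, which binds viral RNA with a triphosphate end, read 10.35 in B6, 8.79, 8.60 and 9.34 in the Sf arrays, and 9.27, 8.93 and 9.49 in the Sf.Il2-/- arrays. B6 was above all mutant arrays, and the mutants overlapped. The differences were -1.43 ± 0.35 in Sf (limma adjusted p = 0.066, and 0.0165 with the replicate block) and -1.12 ± 0.35 in Sf.Il2-/- (adjusted p = 0.145, and 0.0337). Dhx58, which encodes the related regulator LGP2, read 6.42 in B6, 4.02, 4.14 and 5.81 in the Sf arrays, and 6.14, 5.22 and 6.37 in the Sf.Il2-/- arrays. Sf 1 and Sf 2 were low, and Sf 3 lay within the Sf.Il2-/- range. Sf.Il2-/- exceeded Sf by 1.25 ± 0.49 (adjusted p = 0.552, and 0.0226 without Sf 3). Ifih1, the sensor of long double-stranded RNA also called MDA5, and Zbp1, a sensor of Z-form nucleic acid, were lower than B6 by mean in Sf (-0.47 and -0.25) and higher in Sf.Il2-/- (0.27 and 0.29).

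In the ISG15 system, Usp18 removes ISG15 from proteins and also damps signalling at IFNAR2. It read 8.57 in B6, 6.33, 6.36 and 7.01 in the Sf arrays, and 7.62, 6.59 and 7.36 in the Sf.Il2-/- arrays. B6 was above all mutant arrays, and Sf 3 and Sf.Il2-/- 2 overlapped. Usp18 fell by 2.00 ± 0.43 in Sf, 3.99-fold (limma adjusted p = 0.0447), and differed by -1.38 ± 0.43 in Sf.Il2-/- (adjusted p = 0.138). The call in Sf was lost without Sf 1 (adjusted p = 0.0994), without Sf 2 (0.0742) and without Sf.Il2-/- 3 (0.0658), and also with dim genes kept (0.0888), without an intensity trend (0.0626) and with probe sets averaged over genes (0.0564). Herc6, the ligase that attaches ISG15 in mice, differed by -0.82 and -0.41.

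Parp9 and Parp14, ADP-ribosyl transferase family members, and Dtx3l, the ubiquitin ligase partner of PARP9, differed little. Dtx3l read 10.50 in B6, 9.98, 9.79 and 10.35 in the Sf arrays, and 10.53, 10.40 and 10.21 in the Sf.Il2-/- arrays. All Sf arrays were below B6 and Sf.Il2-/- lay around it. The differences from B6 were -0.45 ± 0.28 (limma adjusted p = 0.347) and -0.12 ± 0.28 (adjusted p = 0.868), and Parp9 and Parp14 differed by -0.46 and -0.54 in Sf, with -0.06 and -0.09 as the differences in Sf.Il2-/-.

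The 7 other measured members had lower means in Sf than in B6, with a median of -0.94, and 6 of 7 in Sf.Il2-/-, with a median of -0.31. None passed (limma). At an unadjusted p under 0.05, 4 were lower in Sf, against 16.8% of all genes, and 1 in Sf.Il2-/-, against 12.5%. Rsad2 encodes viperin, an enzyme that makes a nucleotide which ends viral RNA chains, and its ISRE is printed above. It read 8.24 in B6, 5.94, 6.01 and 5.78 in the Sf arrays, and 7.95, 6.10 and 6.74 in the Sf.Il2-/- arrays. The Sf arrays lay close together, and the Sf.Il2-/- arrays spread from just above them to near B6. The differences from B6 were -2.33 ± 0.56 in Sf (limma adjusted p = 0.0615, and 0.0456 with the replicate block) and -1.30 ± 0.56 in Sf.Il2-/- (adjusted p = 0.252). Trim30a, a TRIM family gene that restrains Toll-like receptor signalling, read 11.36 in B6, 9.91, 9.69 and 10.52 in the Sf arrays, and 11.20, 10.74 and 10.79 in the Sf.Il2-/- arrays. The groups kept the order B6, Sf.Il2-/-, Sf in every array. It differed from B6 by -1.32 ± 0.33 in Sf (adjusted p = 0.0707, and 0.0444 with the replicate block), and Sf.Il2-/- exceeded Sf by 0.87 ± 0.24 (adjusted p = 0.356). Rtp4, Xaf1, Samhd1, Bst2 and Isg20 differed from B6 by -1.58, -0.94, -0.82, -0.52 and -0.13 in Sf.

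Between the mutants the question is what IL-2 adds in scurfy cells. The means of 36 of 37 members were higher in Sf.Il2-/-, against 62.2% of all genes, with Iigp1 the exception. The median difference was 0.50, beside 0.08 for all genes, and it was 0.68 for the type I and 0.18 for the gamma-type members. Single arrays moved both: the type I median was 0.34 without Sf.Il2-/- 1 and 1.02 without Sf.Il2-/- 2, and the gamma-type median 0.59 without Sf 3, 0.05 without Sf 1 and 0.00 without Sf 2. No member passed the threshold (limma), against 0.0436% of all genes higher and 0.236% lower. At an unadjusted p under 0.05, 12 members were higher, against 5.46% of all genes, and 0 lower, against 2.46%. In 4 members, Ifit3, Oas1a, Rsad2 and Trim30a, the 3 Sf.Il2-/- arrays lay above the 3 Sf arrays, against 8.39% of all genes, and in 0 they lay below, against 3.72%. After quantile normalization the gamma-type median turned to -0.16 and the type I median stayed at 0.70.

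The count of calls moved most when Sf 3 was left out, and other settings moved it too. Without Sf 3, 16 members passed as higher in Sf.Il2-/-, against 5.85% of all genes: Oas1a, Mx1, Gbp2, Irgm1, Irf1, Irf7, Irf9, Ifih1, Dhx58, Zbp1, Parp9, Parp14, Rtp4, Xaf1, Trim30a and Samhd1. In the same fit 23 members fell in Sf against B6, Gbp6 and Gbp7 among them, against 24.7% of all genes. Iigp1 rose there, against 5.92%. Of Sf.Il2-/- against B6, 7 members passed, with Gbp2, Gbp3 and Iigp1 higher and Oas2, Ifit2, Rigi and Usp18 lower, against 4.7% and 8.91% of all genes. With the replicate number as a block Oas1a alone passed in Sf.Il2-/- against Sf, against 0.131% of all genes. With that block 12 members fell in Sf against B6, against 12.1% of all genes: Oas2, Ifit1, Ifit2, Oasl1, Irf7, Irf9, Stat2, Rigi, Dhx58, Usp18, Rsad2 and Trim30a. In Sf.Il2-/- against B6 it gave 3 lower members, Oas2, Ifit2 and Rigi, against 7.57% of all genes. In each of these fits the share of all genes called moved in the same direction as the count of members.

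With the array set as a block 5 members passed in Sf against B6, with Iigp1 higher, against 3.44% of all genes, and Oas2, Ifit2, Usp18 and Rigi lower, against 1.84%. In Sf.Il2-/- against B6, Gbp2, Gbp3 and Iigp1 were then higher, against 4.05%, and Oas2 and Ifit2 lower, against 2.24%.

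Within the array sets the families moved together in set 1 and apart in set 2, which has 1 array a group. In set 1 the mean of the Sf.Il2-/- arrays exceeded that of the Sf arrays in 37 of 37 members, against 65.0% of all genes, with a median of 0.64. In set 2, with 1 array a group and no test, Sf.Il2-/- 3 exceeded Sf 3 in 24 of 37 members, against 49.6% of all genes, with a median of 0.14. The type I members were higher in 10 of 10 in both sets, with medians of 0.70 and 0.44. The gamma-type members were higher in 7 of 7 in set 1, with a median of 0.55, and in 1 of 7 in set 2, with a median of -0.34. Ifit1 (1.32 and 1.19), Oas1a (1.11 and 1.06) and Rsad2 (1.05 and 0.96) gave like differences in both sets, while Mx1 gave 1.46 and 0.18 and Irgm1 0.95 and -0.34. In a fit of set 1 alone 9 members passed as higher, against 3.07% of all genes: Oas1a, Mx1, Gbp2, Irgm1, Ifih1, Dhx58, Parp14, Xaf1 and Trim30a.

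**Figure D4:**
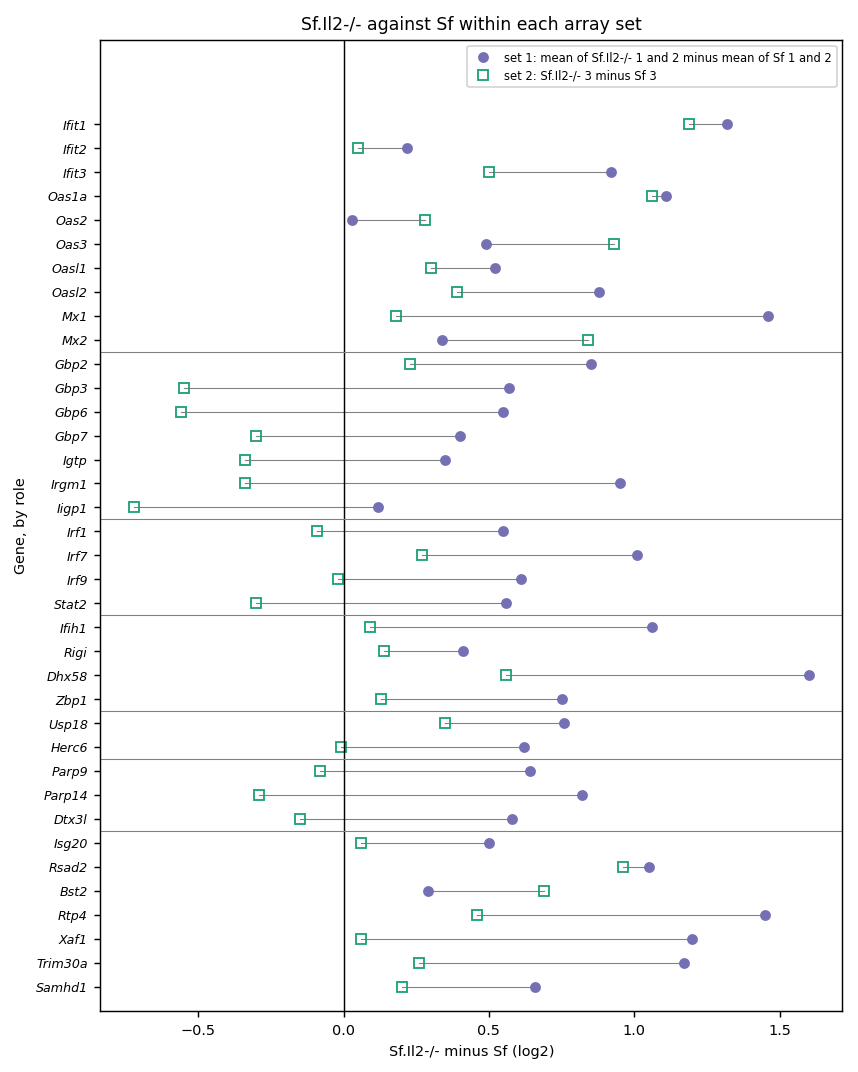
Difference of Sf.Il2-/- from Sf for each member (log2), from the 2 arrays a group of set 1 (filled circles) and from the 1 array a group of set 2 (open squares), joined by a line. Circles lie right of 0 in all 37 members; squares lie right of 0 in the 10 type I rows and left of 0 in 6 of the 7 gamma-type rows.

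The pathway around the members was followed through 39 genes, of which 32 were tested. Of these 1 fell in Sf against B6 and 0 rose (limma), beside 1.16% and 1.31% of all genes. In Sf.Il2-/- against B6, 0 passed, beside 1.2% of all genes lower and 1.49% higher. Between the mutants 0 passed, beside 0.236% of all genes lower and 0.0436% higher in Sf.Il2-/-. At an unadjusted p under 0.05, 8 were lower and 2 higher in Sf against B6, beside 16.8% and 5.79% of all genes. In Sf.Il2-/- against B6, 6 were lower and 2 higher, beside 12.5% and 6.09%, and in Sf.Il2-/- against Sf 6 were higher and 0 lower, beside 5.46% and 2.46%. Ifng, the gene of interferon gamma, read 6.18 in B6, 8.16, 9.01 and 8.98 in the Sf arrays, and 7.84, 9.58 and 9.23 in the Sf.Il2-/- arrays. All 6 mutant arrays lay above B6 and the mutants overlapped. The differences were 2.54 ± 0.61 in Sf (limma adjusted p = 0.0612) and 2.70 ± 0.61 in Sf.Il2-/- (adjusted p = 0.0505), just outside the threshold. Both passed with the replicate block (adjusted p = 0.018 and 0.0164) and without Sf 3 (0.0206 and 0.0181), and over all alternatives the adjusted p ran from 0.000347 to 0.111 in Sf and from 0.00401 to 0.105 in Sf.Il2-/-. Of the type I interferon genes Ifna1 read 4.33 to 5.42 over the arrays, while Ifnb1 (3.94 to 5.34), Ifna2 and Ifna4 were under the filter. Ifnk and Ifne were not analysed here.

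Receptor genes did not pass in any comparison (limma). At an unadjusted p under 0.05, 1 of 4 was lower than B6 in each mutant, against 16.8% of all genes in Sf and 12.5% in Sf.Il2-/-. At that level 1 of 4 was higher in Sf.Il2-/- than in Sf, against 5.46%. Ifnar1 read 8.98 in B6 and lower in every mutant array, with Sf at 8.29, 8.11 and 8.44 and Sf.Il2-/- at 8.18, 8.37 and 8.56 (differences of -0.70 and -0.61). Ifnar2 differed from B6 by -0.16 and 0.48, Ifngr1 by 0.07 and -0.22 and Ifngr2 by -0.60 and -1.17. Jak1, the kinase that both receptors use, read 11.86 in B6, 10.58, 10.31 and 10.86 in the Sf arrays, and 11.04, 11.25 and 11.32 in the Sf.Il2-/- arrays. The 3 groups did not overlap. Jak1 fell by 1.27 ± 0.25 in Sf (limma adjusted p = 0.0313, between 0.00307 and 0.107 over the alternatives), and the difference of Sf.Il2-/- from B6 was -0.66 ± 0.25 (adjusted p = 0.204). The call in Sf was lost without Sf 1 (adjusted p = 0.0889) or without Sf.Il2-/- 1, 2 or 3 (0.0519, 0.0557 and 0.0606), and without Sf 1 and Sf.Il2-/- 2 together (0.0608). It was also lost with dim genes kept (adjusted p = 0.07), without an intensity trend (0.0739) and with probe sets averaged (0.107, at a difference of -1.03), and after quantile normalization the difference was -0.71 (0.0478). The other 4 genes of its list, Jak2, Tyk2, Stat3 and Stat4, lay between -0.75 and -0.07 in Sf.

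Among the other interferon regulatory factors Irf3, the factor downstream of the sensors, differed by -1.23 and -1.03 from B6. Irf4, which antigen receptor signals induce in T cells, differed by 1.03 and 1.20. With no block neither gene passed the threshold. With the replicate block both genes passed in both mutants, in fits where 16.4% (Sf) and 10.6% (Sf.Il2-/-) of all genes passed. Irf2, a competitor of IRF1, read 9.98 in B6, 8.97, 8.72 and 9.68 in the Sf arrays, and 9.93, 10.02 and 9.98 in the Sf.Il2-/- arrays, so Sf.Il2-/- lay at B6 and Sf below both. Socs1, an inhibitor of JAK kinases that interferon gamma induces, read 6.84 in B6, 7.40, 7.27 and 8.33 in the Sf arrays, and 7.31, 7.78 and 8.13 in the Sf.Il2-/- arrays. B6 was the lowest array, and the differences of 0.83 and 0.90 did not pass (limma adjusted p = 0.296 and 0.317). The 10 genes of upstream sensing had a median of -0.31 in Sf and 0.09 in Sf.Il2-/-, against -0.25 and -0.14 of all genes.

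**Figure D5:**
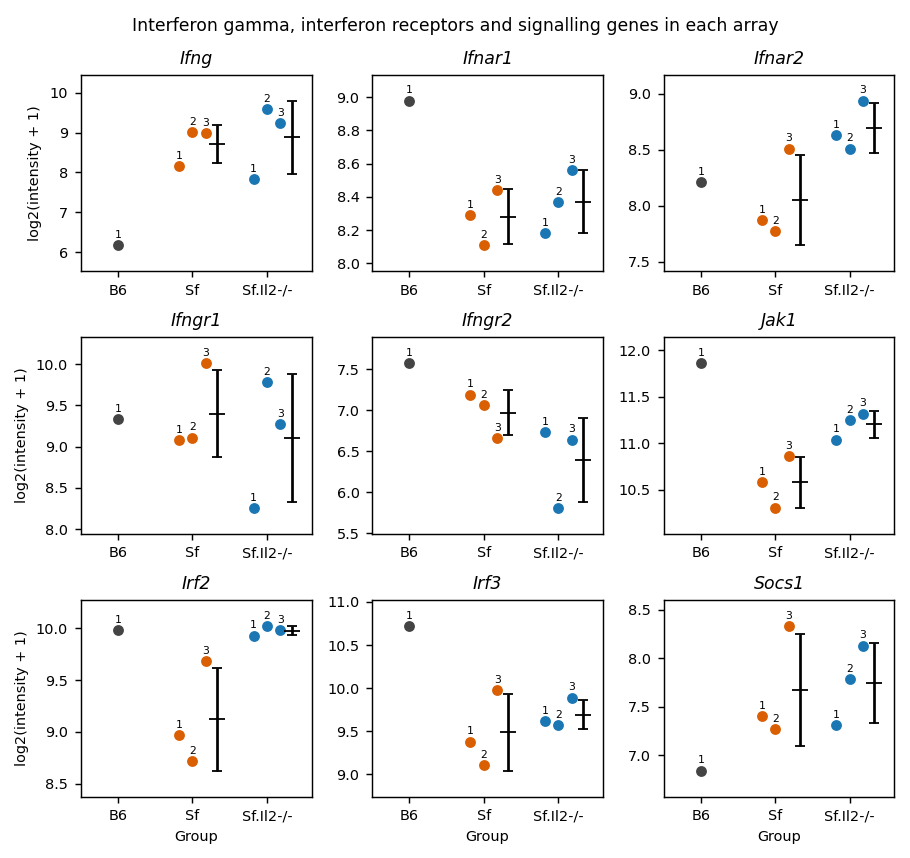
log2(intensity + 1) of Ifng, 4 interferon receptor genes, Jak1, Irf2, Irf3 and Socs1 in each array; points carry the replicate number and bars are mean and SD (n = 3). B6 is lowest in Ifng and Socs1 and highest in Ifnar1, Ifngr2, Jak1 and Irf3; the vertical axes differ and do not start at 0.

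Other probe sets gave a check of the values. There were 22 of them above the filter, for 16 of the members. Their differences had the sign of the chosen probe set in 22 of 22 for Sf against B6 and in 20 of 22 in each of the other comparisons. The exceptions were Gbp6 (-0.13 against 0.18) and Gbp7 (-0.17 against 0.17) in Sf.Il2-/- against Sf, and Dhx58 (0.42 against -0.51) and Zbp1 (-0.25 against 0.29) in Sf.Il2-/- against B6. Rsad2 gave -1.43 and -1.40 in Sf at its other probe sets beside -2.33 at the chosen one.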

How the data were processed

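CD4+ T cell RNA was measured on 7 Affymetrix arrays, and the authors deposited linear intensities, 1 per probe set and array. Per the submitters' processing notes GCRMA and GCOS were used; their roles and versions are not given in the sources used here. Of 45037 probe sets 34945 name 1 gene, 932 several and 9160 none, and Entrez numbers gave the current symbol for 34741. The deposited intensity was then taken to log2 after adding 1. A gene was represented by its brightest probe set that names it alone, and tested where its highest group mean was at least 5.

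All 7 arrays entered 1 limma fit of group means (limma 3.58.1, R 4.3.3; lmFit, eBayes with trend). It had 4 residual degrees of freedom, and 9.57 in total after moderation. P-values were adjusted by Benjamini-Hochberg over 11460 genes, with a threshold of 0.05. The fit takes its spread from the mutant arrays and assumes that the B6 array varies alike. A fold is on the log2(intensity + 1) scale, which understates changes of dim genes. The number of arrays limits the precision. Figures were drawn with matplotlib 3.10.9.

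The members, roles, pathway and marker lists were chosen with earlier results of these data known. Values of every array are given for each member past the threshold in any comparison and, for each role and comparison, for the member with the lowest unadjusted p. Some others (Ifit1, Ifit3, Mx1, Gbp3, Irf1, Ifnar1 and Irf2 among them) were added after their values were seen. Of the pathway, genes past the threshold, Ifng and Socs1 were named by rule.

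To see whether numbers pair the arrays, deviations from the group mean were correlated between Sf and Sf.Il2-/- arrays of 1 number. The correlations were 0.301, 0.211 and 0.505, all over 0.1, although Sf 2 had its highest correlation (0.333) outside its own number. No label names a shared litter or day. Values with the number as a block stand beside some of the results whose call they change. Other members whose call changed are named where the calls with that block are counted.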

Additional observations from a re-analysis of the deposited data

How the results depend on the processing

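The counts of members past the threshold moved with the settings, and the cause was not tested. The share of all genes tested that passed in the same fit, in either direction, stands in brackets. In Sf.Il2-/- against Sf, 0 passed with all arrays (0.279%) and 1 with the replicate block (0.524%). Without Sf 1 and Sf.Il2-/- 2, the arrays high in S100a8, 1 passed (0.454%). In array set 1 alone 9 passed (4.98%), and 0 to 16 when each mutant array was left out, with 16 without Sf 3 (7.45%). In Sf against B6, 3 passed with all arrays (2.47%), 5 after quantile normalization, with Iigp1 higher (4.83%), 5 with arrays centred on their medians (2.36%), 12 with the replicate block (16.4%), 5 with the array set as a block, with Iigp1 higher (5.28%) and 6 without Sf 1 and Sf.Il2-/- 2 (2.99%). Leaving out each array gave 1 to 24, with 1 without Sf 1 (1.03%), 24 without Sf 3 (30.6%), 6 without Sf.Il2-/- 1 (1.75%) and 5 without Sf.Il2-/- 2 (2.15%). In Sf.Il2-/- against B6, 2 passed with all arrays (2.69%), 0 with no filter on dim genes (0.759%), 5 with the array set as a block, 3 of them higher (6.29%), 1 without Sf 1 and Sf.Il2-/- 2 (2.98%), and 1 to 7 when each array was left out, with 7 without Sf 3 (13.6%) and 1 without Sf 1, Sf.Il2-/- 1, Sf.Il2-/- 2 or Sf.Il2-/- 3 (1.13% to 1.62%). Oas2 passed in every leave-one-out fit against B6 of either mutant. Dtx3l, called in no comparison, turned after quantile normalization to -0.02 (Sf.Il2-/- against Sf), 0.20 (Sf against B6) and 0.17 (Sf.Il2-/- against B6), and to -0.15 in set 2 alone. Of the settings of named members, 337 kept direction and side of the threshold, 31 passed it newly and 14 no longer passed; beside those given with the genes, the replicate block changed no other call of Sf.Il2-/- against Sf. Signal over background on these arrays is not given, so only the filter on dim genes bears on it.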
